A study of Mus musculus with 10 samples.

Results

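The control macrophages of this study were described on their own, without a comparison between genotypes: 3 of the 10 libraries, chosen because their labels read wild-type tumour cells in wild-type mice. Genes were ranked by the mean of the deposited values over these 3 libraries. The mice were C57BL/6, an inbred laboratory strain, and received PyMT tumour cells, which come from breast tumours that a polyoma virus oncogene (middle T) causes, in 2 mammary glands each. Macrophages were sorted from the tumours by fluorescence after 5 weeks of growth, and the sources used here name no surface markers for the sort. The other 7 libraries came from mice with a macrophage-specific MerTK knockout given wild-type tumour cells (4 libraries) and from wild-type mice given tumour cells with a Ptdss1 knockdown (3 libraries). No library came from a mouse without a tumour, so nothing here separates what is particular to tumour macrophages from what macrophages carry elsewhere. The labels do not say whether the 3 control libraries came from separate mice, and the spread between them may therefore be technical in part.

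Tumour macrophages arise largely from blood monocytes and take on features of the tissue they enter. They clear dead cells through receptors that bind exposed phosphatidylserine, digest the cargo in lysosomes, present its peptides on MHC molecules, and release chemokines, complement proteins, proteases and growth factors into the tumour. Cytokines of the interferon family raise antigen presentation and the chemokines that attract T cells, whereas interleukin 4, lactate and low oxygen raise genes such as Arg1 and Vegfa.

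Levels are given on 2 scales. The log2 level is the deposited value, log2 of the normalised reads plus 1, which counts reads per gene and so favours long transcripts. TPM, the share of transcripts computed from the reads recovered from those values and the length of each gene's principal transcript, scaled to the same total in every library, allows levels of different genes to be compared. Sets of 3 values are in the order control replicate 1, 2 and 3, and errors are SD over these 3 libraries (n = 3). The libraries held 19789413, 14622749 and 24260871 reads on 21938 protein-coding genes, within the range of 10292592 to 25815071 over all 10 libraries. At least 10 reads fell on 10856, 9066 and 11189 genes, so control replicate 2 was the shallowest and the least complex of the 3. A limit of 3 reads, at a CPM (reads scaled by the library's total) of 0.152, 0.205 and 0.124, is the level below which a gene listed at 0 could still lie; it covers counting error only, since amplified reads without molecular identifiers are not independent molecules. No test was run, because 3 libraries of 1 group hold no contrast.

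Of the 21938 genes, 14035 had a read in at least 1 control library, 9595 in all 3, and 8618 at least 10 reads in all 3. Genes are grouped in 4 classes below. High genes are the top 10% of the genes with a read by mean log2 level (1403 genes, mean log2 level of at least 10.80). At that limit Atraid, at a mean log2 level of 10.80, was the last gene inside and Bzw1, at 10.80, the first outside. Detected genes are the others that reached 10 reads in 2 or 3 libraries (9203), low genes had fewer reads (3429), and 7903 genes were listed at 0 in all 3. Of all genes listed, 6.40% were high and 36.0% were at 0 in all 3 libraries, and the counts for each gene group below stand beside these shares. The groups are 58 lists with 900 distinct genes, of which 894 were found in the table by symbol: 322 were high, 348 detected, 109 low and 115 listed at 0. They were written around macrophage biology, so their share of high genes describes the lists and is no test of them.

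The sorted cells carried the markers of macrophages at high levels in each library. Lyz2, the lysozyme of myeloid cells, had log2 levels of 17.92, 17.43 and 17.13. C1qa, a chain of the complement starter C1q, had log2 levels of 16.31, 16.48 and 15.88. Csf1r, the receptor for the growth factor on which macrophages depend, had log2 levels of 13.63, 13.50 and 13.90, and Adgre1, which encodes the surface antigen F4/80, had 12.95, 12.29 and 12.83. Of 12 macrophage markers, 11 were high and Mertk was detected. The highest and lowest of the 3 libraries differed by 0.79 log2 units for Lyz2, 0.61 for C1qa, 0.40 for Csf1r and 0.67 for Adgre1. All 4 therefore varied by less than 1 log2 unit.

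The single most abundant transcript was Cd74, the invariant chain that guides MHC class II molecules to the endosome and is a receptor for the cytokine Mif. It took 5.04% of the reads on average, at log2 levels of 19.81, 19.69 and 19.39 and 55277 ± 15468 TPM. The next places by log2 level were held by H2-Ab1, Apoe, Fth1, Tmsb4x, Ctss, B2m, H2-Eb1, H2-Aa and Lyz2. These 10 genes together took 20.5 ± 1.66% of the reads, the top 30 took 28.7 ± 1.87% and the top 100 took 38.4 ± 2.70%. In the separate libraries 254, 372 and 206 genes held 50% of the reads. The reads of control replicate 2 were thus spread over the largest number of abundant genes, although it had the fewest genes with 10 reads.

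**Figure D1:**
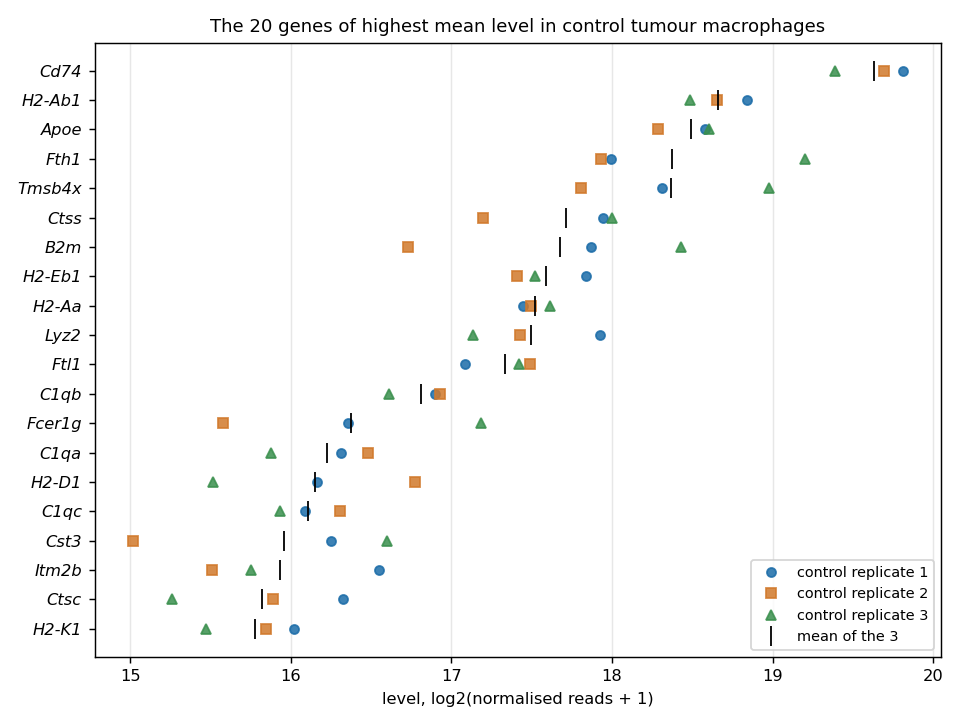
Log2 level (horizontal axis, log2 of normalised reads plus 1) of the 20 genes of highest mean level, with 1 point for each of the 3 control libraries and a tick at their mean. Cd74 leads in every library at 19.39 to 19.81, and the libraries lie closest for H2-Aa and farther apart for B2m, Fcer1g and Cst3.

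The 30 leading genes fell into a few functional groups. MHC genes and their partners were 7 of them (Cd74, H2-Ab1, H2-Eb1, H2-Aa, B2m, H2-D1 and H2-K1), lysosomal proteases and a protease inhibitor were 5 (Ctss, Ctsc, Ctsb, Ctsz and Cst3), the C1q chains 3, and the ferritin chains Fth1 and Ftl1, which store iron, 2. The adaptors Fcer1g and Tyrobp, which carry the signal of many activating receptors including Trem2, were both present at 12272 ± 4525 and 6923 ± 2267 TPM. Ccl8 was the one chemokine among the 30, and Apoe and Lyz2 are the remaining secreted proteins. Of the rest, Tmsb4x, Actb and Cfl1 control the actin skeleton, Eef1a1, H3f3b and Ppia are abundant in most cells, and Itm2b encodes a membrane protein of the secretory pathway. Counting per length kept 9 of the top 10, 23 of the top 30 and 72 of the top 100. Ctsb, whose principal transcript is 4743 bases long, dropped to place 105 by TPM. Short transcripts moved up: Cyba, a subunit of the oxidase that makes superoxide, had 4265 ± 418 TPM, Cd52 3885 ± 1214, the actin-binding Pfn1 3856 ± 1693, the macrophage protein Aif1 3359 ± 1076 and the peroxide-reducing Gpx1 3115 ± 665. Cd63, Rplp1, Rpl41, Sh3bgrl3 and Ly6a completed these 10, at 2664 to 3064 TPM.

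MHC class II genes and their loading machinery held 13.1, 11.9 and 9.87% of the reads in the 3 libraries. Of the 12 listed genes, 8 were high and 3 detected. H2-Ab1, the beta chain of I-A, had log2 levels of 18.84, 18.66 and 18.49, and its partner H2-Aa had 17.45, 17.50 and 17.61. H2-Eb1, the beta chain of I-E, had 17.84, 17.41 and 17.52. C57BL/6 mice are known to lack a functional alpha chain of I-E. The loading factors H2-DMa and H2-DMb1 had log2 levels of 14.88, 14.47 and 14.80 and of 14.50, 14.26 and 13.74, and Ctss, the protease that trims the invariant chain, had 17.95, 17.20 and 18.00. Ciita, the master activator of these genes, had the lower level of a regulator, at log2 levels of 11.63, 12.42 and 10.07 and 54.9 ± 43.8 TPM. It spanned more between libraries than the chains themselves: control replicate 3 was lowest for Ciita, while H2-Aa differed by 0.17 log2 units between its extremes. H2-Ob, part of an inhibitor of loading found mainly in B cells, was at log2 levels of 8.32, 0 and 8.55, with control replicate 2 listed at 0.

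MHC class I genes were 12 high, 5 detected and 1 low of 18. B2m, the light chain shared by all class I molecules, had log2 levels of 17.87, 16.73 and 18.43, and the heavy chains H2-D1 and H2-K1 had 16.16, 16.77 and 15.52 and, in turn, 16.02, 15.84 and 15.47. B2m was highest in control replicate 3, where both heavy chains were lowest. The peptide transporter Tap1 had log2 levels of 12.06, 12.54 and 11.94 and the immunoproteasome subunit Psmb8 14.54, 14.01 and 13.73. Of the 17 high or detected class I genes, 10 were lowest in control replicate 3, against 28.7% of all high or detected genes. H2 genes are near-identical copies of one another and may share reads, so the level of each is uncertain to that extent.

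The start regions of the antigen presentation genes are shown because these genes fill 7 of the 30 leading places. RefSeq promoter sequences (build GRCm38.p6) were found for 17 of the 20 high genes of the MHC lists. The motifs were chosen after the sequences had been looked at: GATTGG, which holds the inverted CCAAT box that is known from MHC promoters as the Y box, and TGACG, the core of sites for cyclic AMP response element binding proteins. The 2 motifs do not overlap each other in the windows below, though TGACGTCA in H2-Aa holds TGACG on both strands. Each window runs over the 120 bases before the annotated start, 5′ to 3′ along the gene, with both motifs in capitals on either strand (the reverse complements are CCAATC and CGTCA). The windows lie at chr2:122147567-122147686 on the plus strand for B2m, at chr17:35262974-35263093 on the plus strand for H2-D1, at chr17:34287824-34287943 on the minus strand for H2-Aa and at chr17:34305747-34305866 on the plus strand for H2-Eb1.
B2m: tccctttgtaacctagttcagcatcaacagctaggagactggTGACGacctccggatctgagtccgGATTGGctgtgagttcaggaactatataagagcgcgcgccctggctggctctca
H2-D1: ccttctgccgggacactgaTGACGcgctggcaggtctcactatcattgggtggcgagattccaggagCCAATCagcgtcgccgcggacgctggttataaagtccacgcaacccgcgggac
H2-Aa: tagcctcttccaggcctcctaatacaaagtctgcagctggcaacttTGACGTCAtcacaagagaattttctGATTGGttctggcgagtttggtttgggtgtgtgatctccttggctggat
H2-Eb1: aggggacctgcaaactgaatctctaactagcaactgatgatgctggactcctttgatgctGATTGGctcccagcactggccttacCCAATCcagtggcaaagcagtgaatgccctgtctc
The first GATTGG element of these 4 windows, on either strand, began 54, 53, 49 and 60 bases before the annotated start. These windows were chosen after the motifs had been found in them. Over all genes of the 17 with the motif its first copy began 6 bases (H2-K1, from the 1 of its 2 windows that holds it) to 79 bases (Pdia3) before the start. GATTGG on either strand was in the 120-base window of 10 of the 17 genes, and in 9.67% of all 32851 promoter windows in the table. TGACG was in the window of 7 of the 17 genes and in 11.7% of all windows. The windows of all high genes held GATTGG in 12.9% and TGACG in 20.6% of cases, and those of genes listed at 0 held them in 8.47% and 7.93%. A match describes letters only, and no binding was measured here.

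C1q, the recognition protein of the classical complement pathway that also tags dying cells, was among the most abundant products. C1qb had log2 levels of 16.90, 16.93 and 16.61 and 10130 ± 2815 TPM, C1qa 7204 ± 2646 TPM, and C1qc log2 levels of 16.09, 16.30 and 15.93 and 5648 ± 1723 TPM. The 3 genes lie next to each other on chromosome 4, from 136880129 to 136898803 in GRCm38, and all 3 were lowest in control replicate 3. Of the other complement genes, C3 had log2 levels of 11.83, 13.05 and 13.17, the alternative pathway factor Cfb 11.88, 12.49 and 11.27, and properdin (Cfp) 11.11, 12.30 and 10.85. In all 7 of 22 complement genes were high, 7 detected, 3 low and 5 listed at 0, the last being Cfd, C7, C9, Cd55 and Vsig4. The transcripts of C1r and C1s, the proteases that act with C1q, were much less abundant than C1q: C1ra had 10.9 ± 5.57 TPM and C1s1 was read only in control replicate 3, at a log2 level of 6.03.

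Iron storage and lipid transport genes were the next group. Fth1, the ferritin heavy chain, had log2 levels of 17.99, 17.93 and 19.20, highest in control replicate 3, and Ftl1, the light chain, had 17.08, 17.49 and 17.42. Hmox1, which breaks down haem, had 10.64, 8.60 and 11.46, and the iron exporter Slc40a1 had no more than a log2 level of 3.75. Hamp and Lcn2, encoding hepcidin and lipocalin 2, were listed at 0. Apoe, the main apolipoprotein of macrophages, had log2 levels of 18.58, 18.29 and 18.61 and 24457 ± 2292 TPM, a range of 0.32 log2 units. The other 4 high genes of the lipid list were the fatty acid carrier Fabp5, the cholesterol exporter Abca1, the lipid droplet protein Plin2 and the cholesterol-esterifying enzyme Soat1. Fabp5 had 11.16, 12.47 and 14.06 and Abca1 11.71, 12.19 and 13.26, both highest in control replicate 3 and lowest in control replicate 1. The nuclear receptor Pparg ranged from 0 to 8.69 in log2 level and the scavenger receptor Cd36 from 0 to 8.05, with both at 0 in control replicate 2.

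Lysosomal genes were abundant. Of 19 protease and inhibitor genes 12 were high, and of 28 hydrolase, membrane and proton pump genes 17 were high and 11 detected. The median SD was 0.52 log2 units for the protease list and 0.32 for the other, beside 0.50 over all high genes, and 3 and 2 of their members (Ctsw, Ctsk and Ctse, and Atp6v0d2 and Smpd1) spanned over 4 log2 units. After Ctss (14940 ± 2668 TPM) came the cystatin Cst3 (7242 ± 2582 TPM), Ctsz (2844 ± 934 TPM) and Ctsc, also called dipeptidyl peptidase 1 (2337 ± 996 TPM). The asparaginyl endopeptidase Lgmn had log2 levels of 14.92, 14.81 and 14.86, a range of 0.12. Grn, encoding progranulin, a lysosomal and secreted protein, had 14.19, 14.16 and 14.21. Ctsk, the collagenase of bone-resorbing cells, reached no more than 5.23 and the protease inhibitor Stfa1 was listed at 0. Gpnmb, which rises in lipid-laden macrophages, stayed at log2 levels of 2.91, 6.49 and 6.60.

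Among receptors, those for growth factors and cytokines were 11 high, 14 detected, 4 low and 2 listed at 0 of 31. After Csf1r, the highest by mean log2 level were Il2rg, the chain shared by several interleukin receptors, Ifnar2, Csf2rb and Csf2ra. Il2rg had log2 levels of 12.28, 12.82 and 12.02 and Ifnar2, a chain of the type I interferon receptor, 12.20, 12.16 and 12.50. The beta and alpha chains of the GM-CSF receptor differed in which library was high: Csf2rb had 11.56, 12.41 and 12.76 and Csf2ra 11.48, 13.51 and 11.10, with control replicate 2 at least 2 log2 units above the others for Csf2ra. Both interferon gamma receptor chains were high, Ifngr1 at 11.65, 11.25 and 11.96 and Ifngr2 at 11.52, 10.72 and 10.91. Flt3, the receptor of dendritic cell progenitors, and the PDGF receptor Pdgfrb were listed at 0, and Il1rl1, the receptor for interleukin 33, reached 3.31.

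Receptors and bridging proteins for apoptotic cells were 9 high, 8 detected, 1 low and 4 listed at 0 of 22. Axl, a receptor tyrosine kinase, had log2 levels of 12.33, 12.38 and 12.51 and 119 ± 17.1 TPM, while its relative Mertk had 9.64, 9.26 and 10.97 and 23.1 ± 11.3 TPM. Tyro3, the remaining member of this family, was listed at 0 in all 3. Gas6 and Pros1, the ligands that bridge these receptors to phosphatidylserine, were detected: Gas6 had 8.75, 9.25 and 8.36 and Pros1 9.65, 4.59 and 8.29, lowest in control replicate 2. The most abundant member was Tgm2, a transglutaminase that takes part in engulfment, at a mean log2 level of 12.87 ± 0.14. Of the TIM family, which binds phosphatidylserine directly, Havcr2 had 9.85, 11.37 and 11.31, Timd4 5.44, 0 and 0.79 and Havcr1 was listed at 0. Stab1 had 10.45, 10.93 and 11.12, whereas its relative Stab2 and the receptor Adgrb1 were listed at 0.

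Scavenger and lipid receptors were 9 high of 20, if the adaptor and lipid proteins on that list are counted. Mrc1, the mannose receptor CD206, had log2 levels of 13.03, 12.91 and 13.72 and Msr1, the class A scavenger receptor, 12.41, 13.24 and 12.79. Trem2, the lipid-sensing receptor of lipid-associated macrophages, had 12.58, 12.58 and 12.71, a range of 0.14, and 543 ± 73.0 TPM. Some other receptors of this list had few reads or none: Cd163, the haemoglobin scavenger receptor, had 3.72, 0 and 0.79, Marco 0, 1.03 and 0 and Olr1 0, 0 and 4.09. At most 1 read of Marco was found in a library, and Vldlr and Cd163l1 were listed at 0.

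Receptors for antibody and complement were 11 high, 1 detected and 3 listed at 0 of 15, and 0 spanned more than 4 log2 units. Fcgr2b, the inhibitory Fc receptor, had log2 levels of 14.92, 14.37 and 15.21, and the activating Fcgr3 had 14.59, 14.24 and 14.97, Fcgr4 14.08, 13.13 and 13.88 and Fcgr1 12.68, 12.10 and 11.76. Per length Fcgr3 (1716 ± 126 TPM) and Fcgr4 (1006 ± 265 TPM) were above Fcgr2b (771 ± 96.1 TPM) in mean level, with the caveat that these paralogs may share reads. The anaphylatoxin receptors C3ar1 and C5ar1 had 12.33, 13.64 and 12.13 and, for the latter, 11.76, 11.59 and 10.84. The immunoglobulin E receptor Fcer1a, the B cell receptor Cr2 and Vsig4 were listed at 0. Thus the Fc receptor gamma chain Fcer1g was abundant while the IgE-binding chain Fcer1a had no read.

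Pattern sensors were mostly of middle level, with 5 high and 20 detected of 26. Cd14, the co-receptor for lipopolysaccharide, stood out at log2 levels of 14.82, 14.41 and 14.35 and 1370 ± 349 TPM. Its partner receptor Tlr4 had 8.81, 9.36 and 8.74 and 12.1 ± 5.06 TPM, and Ly96 9.80, 9.54 and 10.15. Unc93b1, which carries Toll-like receptors to the endosome, had 12.90, 13.71 and 12.29. Tlr2 was the highest Toll-like receptor at 12.43, 10.25 and 11.33, and Tmem173, encoding the DNA-sensing adaptor STING, had 11.60, 11.69 and 10.17. Tlr9 remained at or below 5.11 and Tlr5 was read at more than a trace in control replicate 3 alone, at 7.26.

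C-type lectins and Siglecs were 5 high and 12 detected of 21, and 11 of these 17 were highest in control replicate 1, against 30.4% of all high or detected genes. Clec4n, encoding Dectin-2, had log2 levels of 13.22, 13.48 and 12.56, Clec4a3 13.44, 12.18 and 11.74 and Mgl2 11.64, 12.64 and 11.43. Clec4b1, Siglece and Siglec1 were among the uneven ones, at 9.33, 0 and 5.02 for Clec4b1, 8.81, 0 and 6.24 for Siglece and 8.58, 1.63 and 7.29 for Siglec1. In each of these 3 genes control replicate 2 was the lowest, at 0 or near it. Siglecg and Siglech were listed at 0.

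Of 21 chemokine receptors 4 were high, 5 detected, 7 low and 5 listed at 0, beside 6.40% high and 36.0% at 0 over all genes. Ccr1, a receptor for Ccl3 and Ccl5, had log2 levels of 12.18, 13.22 and 12.32. Cx3cr1, the fractalkine receptor of patrolling monocytes and many tissue macrophages, had 12.07, 11.34 and 9.62, and Ccr2, the receptor by which monocytes leave the bone marrow, had 11.63, 10.41 and 8.70. Control replicate 3 was lowest for both. Cxcr4 had 9.25, 8.74 and 11.48, with control replicate 3 the highest, and Ackr3 was read in that library alone, with 247 reads. Ccr7, which takes dendritic cells to lymph nodes, was listed at 0, as were Cxcr1, Ccr4, Ccr6 and Ccr8.

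Inhibitory receptors and checkpoint ligands were well represented, with 14 high and 9 detected of 27. Lilrb4a had log2 levels of 13.42, 12.88 and 12.88, Sirpa, the receptor for the CD47 signal, 12.83, 12.87 and 12.85, and Cd47 itself 12.76, 12.19 and 12.98. Sirpa varied by an SD of 0.02, the second smallest among the 1403 high genes. Cd274, encoding PD-L1, had 11.02, 11.83 and 12.39 and 93.2 ± 33.9 TPM, and Pdcd1lg2, encoding PD-L2, had 10.13, 11.82 and 11.14 and 131 ± 88.7 TPM. Both were lowest in control replicate 1. The costimulator Cd86 had 12.07, 12.57 and 12.78, or 159.9, 265 and 213 TPM, while Cd80 had 8.69, 8.70 and 8.58, or 12.3, 14.5 and 9.28 TPM. Vtcn1 was listed at 0, and the T cell receptors Pdcd1 and Ctla4 were read in control replicate 3 alone, at 3.58 and 5.66.

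Adhesion molecules were 13 high and 7 detected of 20. Itgam, encoding CD11b, had log2 levels of 11.10, 11.10 and 11.16 and Itgax, encoding CD11c, 11.52, 12.56 and 12.38, so the 2 integrin chains differed in evenness. The tetraspanin Cd81 had 13.53, 13.09 and 12.80 and Vcam1, an adhesion molecule reported on tumour macrophages, 12.19, 12.19 and 13.82, with control replicate 3 the highest. Receptors for purines, lipid mediators and hormones were 4 high and 17 detected of 24, led by the proton sensor Gpr65 at 12.56, 12.06 and 11.75 and the UDP-sugar receptor P2ry14 at 10.73, 11.22 and 10.85. The adenosine receptor Adora2a, a target of tumour immunology, was read in control replicate 3 alone, at 3.67. Ptger4 and Ptger2, receptors for prostaglandin E2, had 9.44, 8.94 and 8.69 and, in turn, 7.92, 0 and 8.41.

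**Figure D2:**
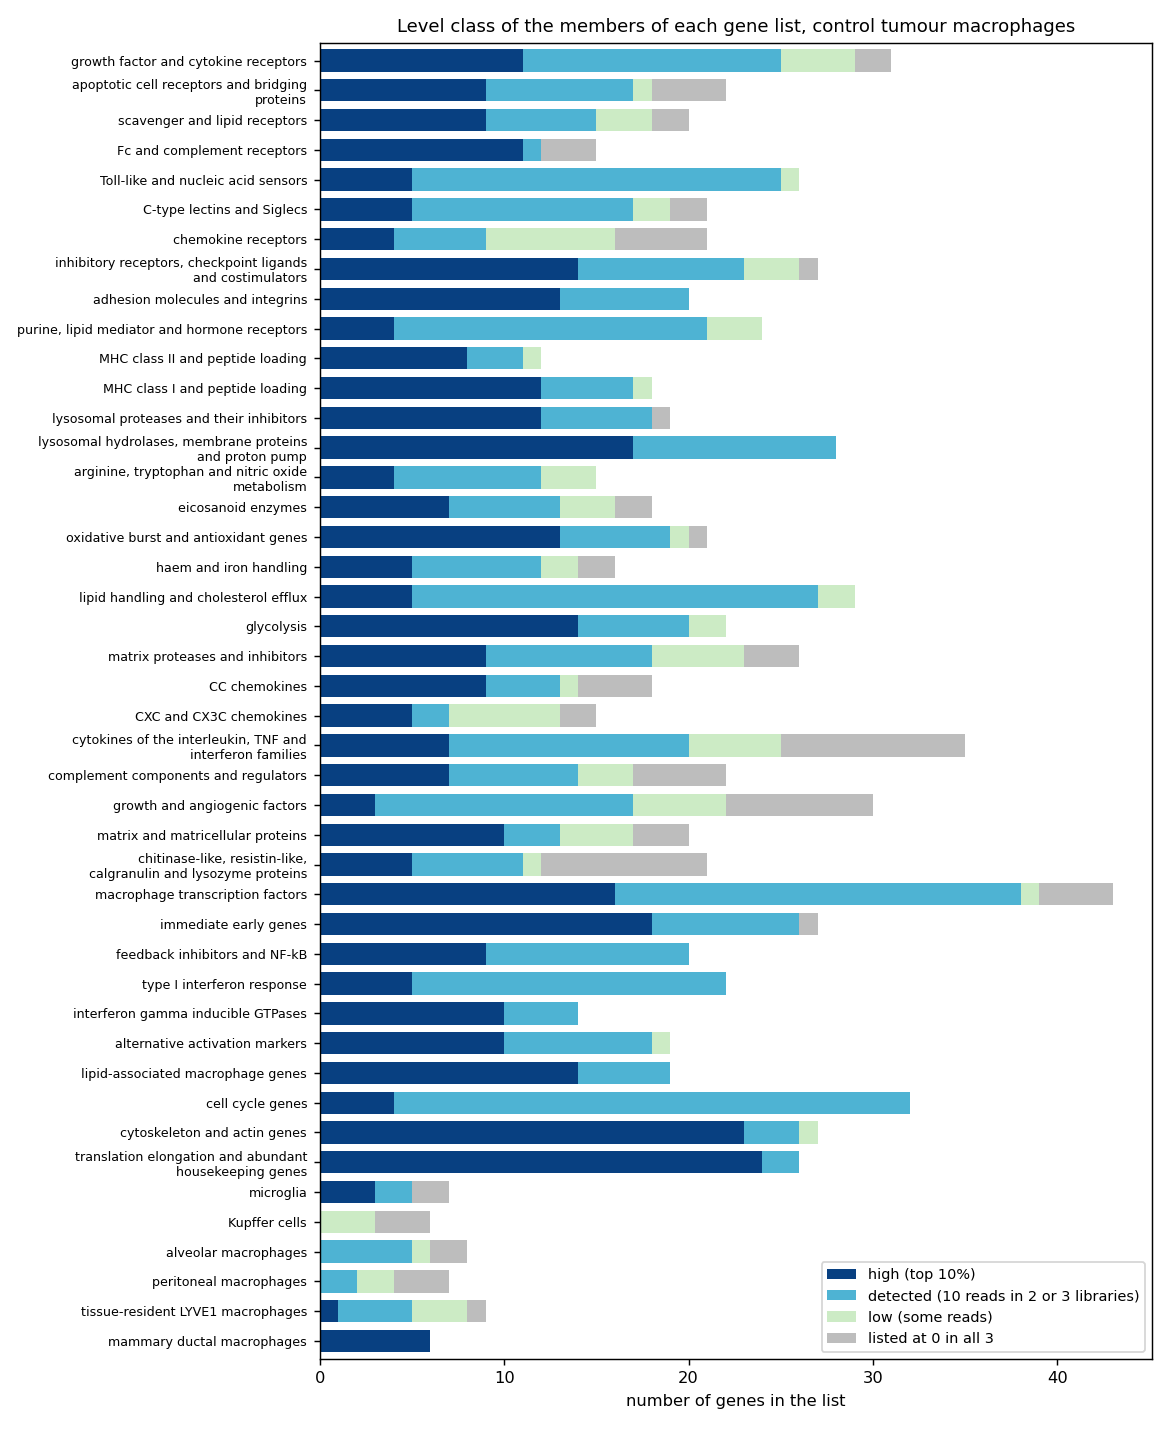
Number of genes (horizontal axis) of each list in the 4 level classes, for the lists of receptors, antigen presentation, enzymes, secreted factors, regulators, programs and resident macrophage types. High genes are 11 of 15 for Fc and complement receptors and 4 of 21 for chemokine receptors, and 10 of 35 cytokines are listed at 0.

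Among metabolic enzymes, Arg1, which turns arginine into ornithine and urea, was abundant but uneven. It had log2 levels of 13.60, 14.91 and 15.74 and TPM of 795, 2306 and 2865. Nos2, the nitric oxide synthase that competes for arginine, had log2 levels of 4.57, 6.90 and 9.44 and 0.628, 3.82 and 15.6 TPM. Both genes were lowest in control replicate 1 and highest in control replicate 3, and in each library Arg1 was the higher of the pair per length. Slc7a2, an arginine transporter, had 10.53, 12.11 and 12.37, also lowest in control replicate 1. Ido1, which degrades tryptophan, ranged from 0 to a log2 level of 6.60, and Acod1, the source of itaconate, had 9.43, 9.45 and 8.69. Sat1, which breaks down polyamines, had 14.82, 13.95 and 15.29.

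Eicosanoid genes were 7 high of 18: Pla2g7, Ptgs1, Alox5ap, Hpgds, Tbxas1, Ptgs2 and Ptges3. The inducible cyclooxygenase Ptgs2 had log2 levels of 11.19, 11.44 and 9.90 and the constitutive Ptgs1 11.67, 12.62 and 11.38. Hpgds and Tbxas1, which make prostaglandin D2 and thromboxane, had 11.50, 11.93 and 10.70 and, for the latter, 10.84, 11.63 and 10.60. Ptges, the inducible synthase of prostaglandin E2, was low at 0, 3.06 and 3.82. Alox5 had 4.71, 0 and 3.75 although its activating protein Alox5ap had 12.67, 10.06 and 12.73, and Alox12 and Ptgds were listed at 0. In both Alox5 and Alox5ap control replicate 2 was the lowest.

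Oxidase and antioxidant genes were 13 high of 21. Cybb and Cyba, the membrane subunits of the phagocyte oxidase, had log2 levels of 13.79, 12.98 and 14.02 and, for Cyba, 15.10, 14.63 and 15.42. The cytosolic subunits Ncf1 and Ncf4 were both high, at 11.29, 10.93 and 11.34 for Ncf1 and 12.02, 12.32 and 10.97 for Ncf4. Mpo, the oxidase of neutrophil granules, was listed at 0. Gpx1 had 15.16, 15.14 and 15.03, an SD of 0.07. Nqo1, a target of the stress regulator Nfe2l2, had no more than 2.61, while Nfe2l2 itself had 12.82, 12.65 and 12.20.

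The glycolysis list, which also holds regulators and transporters, had 14 high, 6 detected and 2 low genes of 22. Of its 20 high or detected genes, 17 were lowest in control replicate 1, against 25.3% of all high or detected genes. Pgk1 had log2 levels of 12.23, 12.29 and 13.55, Hif1a, the oxygen-sensing transcription factor, 11.32, 11.83 and 12.71, and the glucose transporter Slc2a1 10.72, 11.05 and 11.84. The hexokinases differed: Hk3, typical of myeloid cells, had 88.8 ± 49.3 TPM, Hk2 37.3 ± 13.2 and Hk1 6.66 ± 0.999. Pdk1, which diverts pyruvate from mitochondria, had log2 levels of 7.36, 9.02 and 10.05.

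Matrix proteases and their inhibitors were 9 high of 26. Mmp14, a membrane-bound metalloprotease, had log2 levels of 11.30, 12.41 and 12.31, Mmp13 10.69, 12.32 and 11.11, and Mmp12, the macrophage elastase, 9.28, 12.73 and 10.85. Mmp12 differed by 3.45 log2 units between control replicates 1 and 2. Adam8 had 8.96, 11.25 and 12.50, and Plaur, the urokinase receptor, 11.73, 11.23 and 13.29. Mmp9, a gelatinase often linked to tumour macrophages and neutrophils, had reads of 0, 0 and 1, and Mmp7, Mmp10 and Serpinb2 were listed at 0. The inhibitor Timp2 had 108, 125 and 104 TPM, above Timp1 at 11.4, 16.0 and 5.69 TPM in every library.

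The CC chemokines were 9 high, 4 detected, 1 low and 4 listed at 0 of 18. Ccl8 was the most abundant, at log2 levels of 15.11, 15.29 and 16.81 and 6535, 8702 and 17298 TPM, highest in control replicate 3. Ccl2, Ccl7 and Ccl12, ligands of Ccr2, were all lowest in that library: Ccl12 had log2 levels of 13.10, 13.12 and 9.17, Ccl7 13.55, 12.52 and 10.25 and Ccl2 12.62, 11.79 and 10.29. These 4 genes lie in 1 cluster on chromosome 11, from 82035571 to 82116799 in GRCm38, with Ccl8 next to Ccl12. Ccl11, the eosinophil chemokine whose gene lies between Ccl7 and Ccl12, was listed at 0. Ccl24, another eosinophil chemokine, had log2 levels of 8.84, 13.63 and 13.35, with 560, 12153 and 14286 reads. By contrast Ccl6 had 13.23, 13.12 and 13.15 and Ccl9 12.14, 12.12 and 12.53, with ranges of 0.12 and 0.41 log2 units. Ccl22 and Ccl17, ligands of Ccr4, were among the lower chemokines, Ccl22 at 0, 7.43 and 5.39 and Ccl17 at 5.41, 6.69 and 4.81, with 51, 98 and 37 reads for Ccl17. Neighbouring chemokine genes are similar in sequence and may share reads.

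Of the CXC and CX3C chemokines 5 of 15 were high. Cxcl9 and Cxcl10, ligands of Cxcr3 on T cells that are both induced by interferon gamma, did not move together. Cxcl9 had log2 levels of 14.84, 14.30 and 15.02, within 0.73 log2 units of each other, whereas Cxcl10 had 13.77, 13.31 and 10.02. In TPM Cxcl10 was at 1205, 1025 and 73.1, and control replicate 3 was the low one. Cxcl16 had log2 levels of 14.11, 14.57 and 14.39 and Cxcl2, a neutrophil chemokine, 12.59, 13.56 and 11.91. Cxcl3 was listed at 0 and Cxcl12 had no more than 3.43. Pf4 had 11.25, 11.37 and 12.97, while its platelet companion Ppbp was listed at 0.

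Cytokines were 7 high, 13 detected, 5 low and 10 listed at 0 of 35. Il1b was the highest by mean log2 level, at 14.76, 14.31 and 14.11 and 1532 ± 479 TPM, and its antagonist Il1rn had 11.68, 12.07 and 11.87 and 145 ± 41.3 TPM. Mif had 12.64, 12.88 and 14.47, highest in control replicate 3, and Il18bp, a secreted inhibitor of interleukin 18, 12.52, 12.65 and 12.44. Osm, a cytokine related to interleukin 6, had 11.27, 11.16 and 11.25, a range of 0.11. Tnf, by contrast, had 9.91, 7.97 and 8.01 and 28.1 ± 23.8 TPM. Some cytokines often used to class macrophages were unread in at least 1 library: Il6 had 5.52, 0 and 0, Il12b 7.01, 0 and 0, Il10 5.57, 0 and 6.60 and Il23a 0, 5.42 and 0. Of these Il10 was in the detected class. Ifng, Ifnb1, Il4, Il13, Il12a, Csf2, Csf3, Lta, Tnfsf4 and Tnfsf11 were listed at 0 in all 3 libraries. Csf1, the ligand of Csf1r, had 16, 0 and 11 reads, and Il34, its other ligand, was read in control replicate 1 alone.

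Growth and angiogenic factors were 3 high, 14 detected, 5 low and 8 listed at 0 of 30, beside 6.40% high and 36.0% at 0 over all genes. Vegfa, the main angiogenic factor, had log2 levels of 10.60, 11.12 and 13.02 and TPM of 225, 376 and 978. Igf1 had log2 levels of 10.24, 11.62 and 11.90. Both were lowest in control replicate 1 and highest in control replicate 3. Tgfb1 had 9.75, 10.72 and 9.58, Tgfb3 8.34, 6.79 and 10.88, and Tgfb2 at most 4.18. Pgf, a relative of Vegfa, had 6.58, 10.13 and 9.13, and Hgf 8.86, 9.20 and 9.98. Adm, encoding the vessel-relaxing peptide adrenomedullin, was read in control replicate 3 alone, at 7.68. Vegfc, Vegfd, Igf2, Ereg, Bmp2, Bmp7, Angpt1 and Sema3c were listed at 0.

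**Figure D3:**
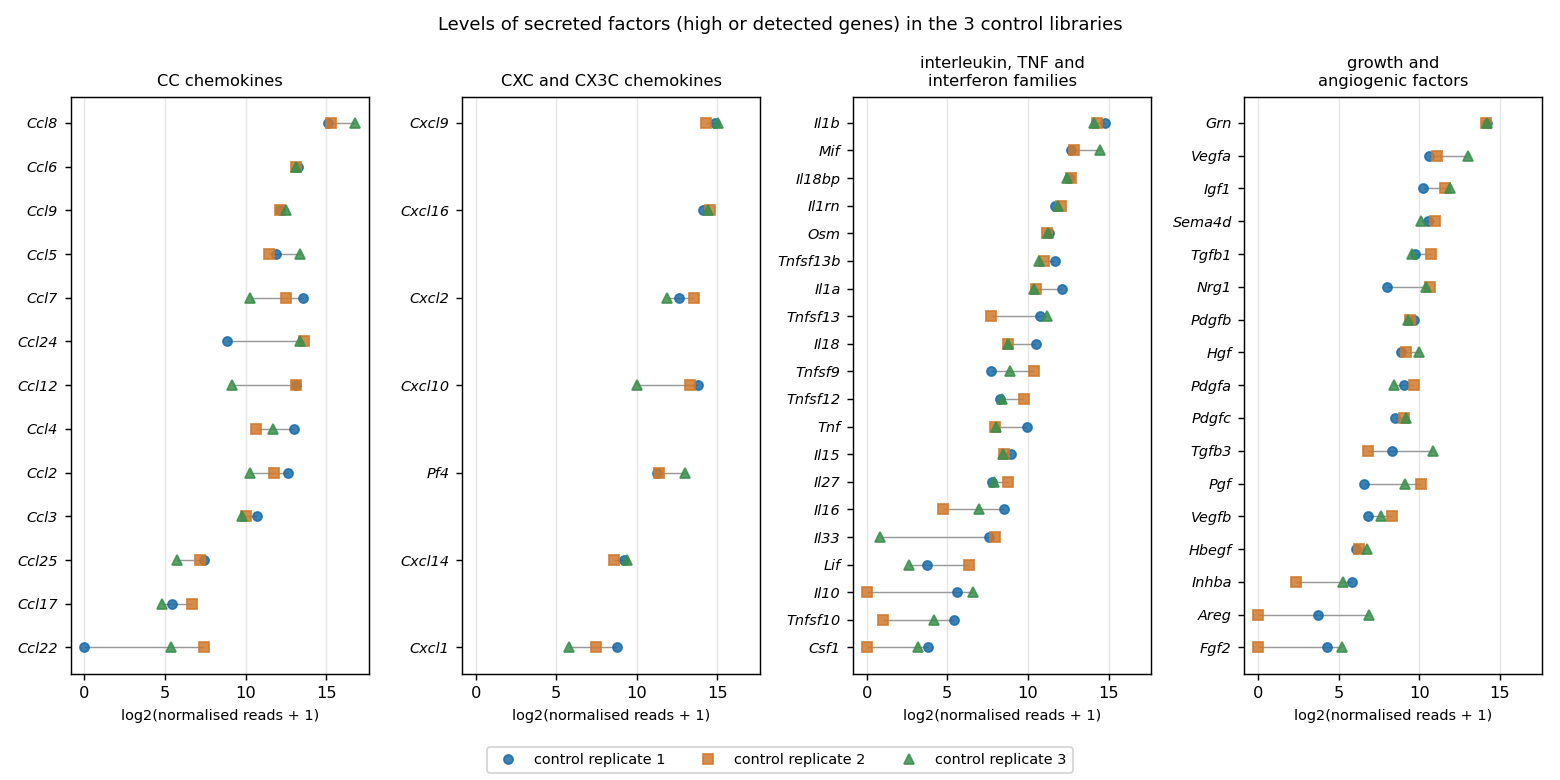
Log2 levels (horizontal axes, log2 of normalised reads plus 1) of the high or detected chemokines, cytokines and growth factors, 1 point per control library and a line over their range. Ccl6, Cxcl16 and Grn show tight triples, whereas Ccl24 is low in control replicate 1 and Ccl12 and Cxcl10 in control replicate 3.

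Matrix and matricellular genes were 10 high of 20. Lgals3, encoding galectin 3, had log2 levels of 13.76, 14.94 and 15.17, Tgfbi 14.41, 14.85 and 14.61, Spp1, encoding osteopontin, 12.31, 12.93 and 12.58 and Fn1 12.66, 12.45 and 12.90. Thbs1 had 11.60, 12.48 and 14.11, highest in control replicate 3. Postn, Vcan and Lum were listed at 0. Among chitinase-like, resistin-like and calgranulin genes, Retnla, a product of interleukin 4 signalling, was the most uneven high gene of all, at 14.96, 10.05 and 10.48 and 39099, 1016 and 1946 reads. Chil3, another such product, had 7.17, 7.49 and 5.66. S100a8 had no more than 1.97 and S100a9 was listed at 0, as were Chil1, Chil4, Camp and Ngp. Wfdc17 had 13.42, 11.95 and 13.77.

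Transcription factors of macrophages were 16 high, 22 detected, 1 low and 4 listed at 0 of 43. Spi1, encoding PU.1, had log2 levels of 12.21, 13.11 and 11.45, Cebpb 12.60, 13.58 and 13.18 and Irf8 12.06, 12.96 and 11.77. Irf8 was highest in control replicate 2. Gata6, Sall1, Gata1 and Myb, which mark peritoneal macrophages, microglia, the erythroid line and progenitors, were listed at 0. Immediate early genes, which respond within minutes and can also be induced by cell isolation, were 18 high of 27: Fos had 14.90, 14.98 and 14.50, Junb 13.36, 15.05 and 12.86 and Dusp1 13.89, 13.49 and 13.32. Of their 26 high or detected members, 17 were highest in control replicate 2, against 38.1% of all high or detected genes. What part the handling of the cells had was not tested. Feedback inhibitors and NF-kB genes were 9 high and 11 detected of 20, led by Rgs1 at 13.92, 14.61 and 14.62. Actin and cytoskeleton genes were 23 high of 27, and translation and housekeeping genes 24 high of 26.

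Markers often read as alternative activation were 10 high, 8 detected and 1 low of 19, but did not move as 1 group between libraries. Retnla was highest in control replicate 1, while Ccl24 and Arg1 were lowest there. Mrc1 and Tgm2 differed by less than 1 log2 unit. Lipid-associated macrophage genes were 14 high and 5 detected of 19, among them Trem2, Cd9 (11.99, 12.82 and 12.23), Cd63 (14.51, 15.25 and 15.54) and Ctsd (12.98, 13.15 and 13.14). Of the 6 genes used for mammary ductal macrophages (Apoe, Trem2, Itgax, Mmp14, Mmp13 and Cx3cr1) all were high. In lists of macrophages resident in other organs, high genes were 0 of 6 for Kupffer cells, 0 of 8 for alveolar and 0 of 7 for peritoneal macrophages. They were 1 of 9 for LYVE1 macrophages and 3 of 7 for microglia, beside 6.40% of all genes. At that share a list this short would often hold 0 high genes. Clec4f, Cd5l, Lyve1 and Krt79 were listed at 0, whereas the microglial Olfml3 and Cx3cr1 were high and Tmem119 detected at 11.13, 9.65 and 11.06.

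Most of the genes of other cell types below were not high, though some were detected. Over all 21938 genes, 10606 were high or detected and 36.0% were listed at 0. Of 12 neutrophil markers 0 were high, 1 detected and 8 listed at 0, among them Ly6g, Elane and S100a9; of 10 mast cell and basophil markers 7 were listed at 0. Epithelial and tumour cell markers were 5 detected, 4 low and 7 listed at 0 of 16: Epcam, Krt14 and Krt19 were at 0, Krt8 at log2 levels of 5.49, 0 and 6.18 and Krt18 at 7.02, 0 and 4.37. Of the T cell markers 5 of 13 were detected and 0 listed at 0. Cd3e, Cd28 and Lat were read in control replicate 3 alone and Cd3g was at 5.94, 0 and 7.76. NK cell markers were 6 detected, 3 low and 1 listed at 0 of 10, with Gzma at 10.73, 0 and 7.63. Among B cell markers Cd79a and Pax5 were listed at 0. The sum over the T cell list was 15.9, 28.3 and 67.9 TPM, and over the NK cell list 363, 205 and 134 TPM. The epithelial and tumour cell list came to 34.0, 8.18 and 13.6 TPM, against 47999, 50125 and 30998 TPM for the macrophage list. Such a sum is not the RNA of a cell type. In control replicate 2 only 1 of 13 T cell genes and 2 of 16 epithelial genes reached 10 reads. In the dendritic cell list 3 of 11 genes were detected, Ccr7, Flt3 and Siglech were listed at 0, and Batf3 led with 10.70, 9.74 and 9.13. Fibroblast, endothelial, adipocyte and erythroid or platelet lists had 3 of 13, 2 of 11, 1 of 7 and 0 of 10 genes detected, and of these lists only the last had a high gene, Pf4. In RNA from pooled cells, fewer cells of a type and less RNA per cell cannot be told apart.

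The spread between the 3 libraries depended on the level of the gene. Among the 1403 high genes the median SD was 0.50 log2 units, with the middle 50% of genes between 0.31 and 0.77, and read counting alone would give a median of 0.024. An SD below 0.2 was found for 163 high genes (11.6%), below 0.5 for 703 (50.1%) and below 1 for 1235 (88.0%). The SD grew as levels fell, to a median of 3.13 in decile 7 of the genes with a read (decile 1 being the highest). There 38.1% of genes were listed at 0 in at least 1 library. Below that the median SD fell again, to 2.79, 1.68 and 0.60 in deciles 8, 9 and 10. In these deciles 78.7, 97.3 and 100% of genes were listed at 0 in at least 1 library. Across high genes, Pearson's r between libraries was 0.80 for control replicates 1 and 2, 0.79 for 1 and 3, and 0.65 for 2 and 3, given as descriptions across genes that are not independent. The same high genes had a median SD of 0.44 in the 4 libraries of the MerTK knockout mice and 0.69 in the 3 libraries of Ptdss1 knockdown tumours. Those groups shared 81 and 80 of their top 100 genes with the control group.

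The smallest and largest SDs below are extremes picked from 1403 high genes, each from 3 values. A small one does not show that a gene is constant. The 10 high genes of smallest SD were Hmox2, Sirpa, Cuta, Ssb, Grn, Vim, Itgam, Sft2d1, Emg1 and Spcs2. Hmox2, the constitutive haem oxygenase, had log2 levels of 11.03, 11.01 and 11.04, and the intermediate filament Vim had 13.49, 13.54 and 13.55. The 10 high genes of largest SD were Retnla, Ccl24, Ccl12, Cxcl10, Socs1, Adam8, Hilpda, Mmp12, Ccl7 and Rps4x, at SDs of 1.54 to 2.72. Of these, 4 are chemokines. Socs1, a feedback inhibitor of interferon signalling, had 10.21, 12.89 and 9.32, highest in control replicate 2, and Hilpda, a lipid droplet protein induced by low oxygen, had 10.60, 11.16 and 13.90, highest in control replicate 3.

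Gene groups differed together between libraries. Of 14 interferon gamma inducible GTPases, which act against pathogens inside cells, 13 were lowest in control replicate 3, against 28.7% of all high or detected genes. Iigp1 had log2 levels of 12.83, 13.69 and 11.68, Gbp3 12.12, 12.32 and 10.41, Igtp 11.75, 11.54 and 9.94 and Gbp5 9.52, 10.19 and 5.37. The exception, Gbp2, had 12.68, 11.89 and 12.26. Relative to each gene's own mean, the list's median stood at 0.40, 0.58 and -0.89 log2 units in the 3 libraries, while over all high or detected genes it stood at 0.10, -0.09 and 0.11. Type I interferon genes were highest in control replicate 1 for 16 of 22, against 30.4% of all high or detected genes, and lowest in control replicate 3 for 12 of 22, against 28.7%. Ifit3 had 9.45, 8.71 and 6.67 and Usp18 9.92, 9.66 and 6.44.

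The glycolysis list holds enzymes that turn glucose into pyruvate and lactate, and other genes such as Epas1 and Slc2a3. Its genes were mostly highest in control replicate 3. Of the 20 high or detected ones 13 were highest in that library, against 31.6% of all high or detected genes, and 1 was lowest there, against 28.7%. The median deviation of that list from each gene's mean was -0.43 log2 units in control replicate 1 and 0.40 in control replicate 3.

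Proliferation genes were mostly highest in control replicate 1. Of 32 cell cycle genes 4 were high and 28 detected. Of these, 22 were highest in control replicate 1, against 30.4% of all high or detected genes, and 21 were lowest in control replicate 2, against 46.0%. Birc5 had log2 levels of 10.76, 8.46 and 9.69, Ccnb2 9.55, 3.06 and 7.83 and Aurka 8.82, 0 and 5.08, but Mki67, the usual marker of cycling cells, had 9.55, 11.31 and 8.23 and was highest in control replicate 2. The principal transcript of Mki67 has 10061 bases, that of Birc5 947 and that of Ccnb2 1531. What part length had in this difference was not tested. The monocyte genes Ly6c2, Plac8 and Ccr2 had 9.90, 1.63 and 7.08 for Ly6c2, 10.71, 3.97 and 8.02 for Plac8 and 11.63, 10.41 and 8.70 for Ccr2, each highest in control replicate 1. Of the 7 high or detected genes of the classical monocyte list 4 were highest there, against 30.4% of all high or detected genes. Chil3 was highest in control replicate 2 and Fn1 and F13a1 in control replicate 3. Over that whole list 1 of 9 genes was high, 6 were detected, and Vcan and Cd177 were listed at 0. The list of patrolling monocytes had 3 high, 2 detected and 2 low genes of 7.

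**Figure D4:**
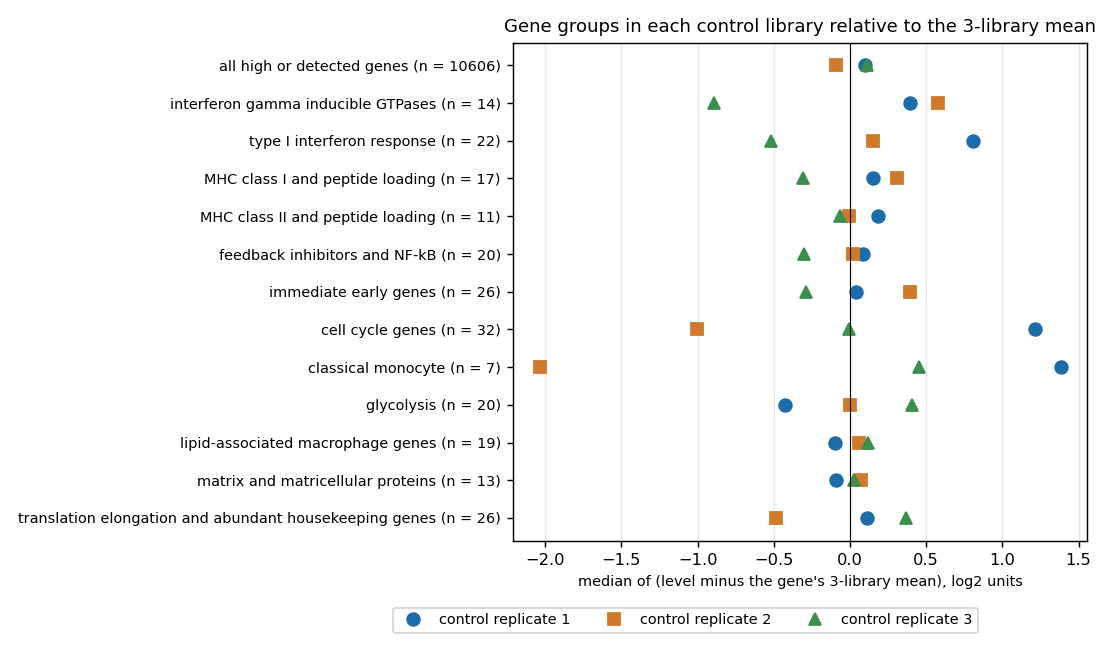
Median over the high or detected genes of each list of the level minus the gene's own mean (horizontal axis, log2 units), 1 point per control library, with all high or detected genes at the top. Control replicate 3 lies lowest for the interferon lists and highest for the glycolysis list, and control replicate 1 highest for the cell cycle and classical monocyte lists.

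Differences between libraries varied with transcript length, most of all under 800 bases. Among 7528 genes with a known length and at least 50 reads in every control library, the 294 with principal transcripts under 800 bases were lower in control replicate 2 than in control replicate 1 by a median of 0.55 log2 units, and higher in control replicate 3 than in control replicate 2 by 1.43. Genes of at least 5000 bases were higher in control replicate 2 than in control replicate 1 by 0.54 and lower in control replicate 3 than in control replicate 2 by a median difference of -0.43. Between control replicates 1 and 3 the genes under 800 bases were higher in the latter by 0.82, while the medians of the longer classes lay between -0.20 and 0.07. Across all 7528 genes Spearman's rho of the difference with length was 0.20 for control replicate 2 minus 1, -0.14 for 3 minus 2 and 0.05 for 3 minus 1, given as descriptions. Ribosomal protein genes, whose median length is 886 bases, had mean levels of 12.08, 11.37 and 13.51. Between control replicates 3 and 2 the length class under 800 bases differed by a median of 1.43 and the class next above by 0.16. Those medians cover genes with 50 reads in every library, ribosomal ones included. They are another measure than the mean over ribosomal genes and were not compared with it. Of 77 ribosomal genes with a read, 68 were high, 76 were highest in control replicate 3 and 75 lowest in control replicate 2. Of all high or detected genes, 31.6% were highest in control replicate 3 and 46.0% lowest in control replicate 2. They took 2.87, 1.88 and 6.79% of the reads. Rps4x, at 13.06, 11.72 and 14.79, was the one with the largest SD. B2m, Fcer1g, Tyrobp, Cst3 and Tmsb4x, all with transcripts under 900 bases, had the same order of libraries, lowest in control replicate 2 and highest in control replicate 3. Of the 294 genes under 800 bases, 88.8% were higher in control replicate 3 than in control replicate 2. Ccl12, with 537 bases, was one of the others. What part transcript length had in the group differences above was not tested.

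**Figure D5:**
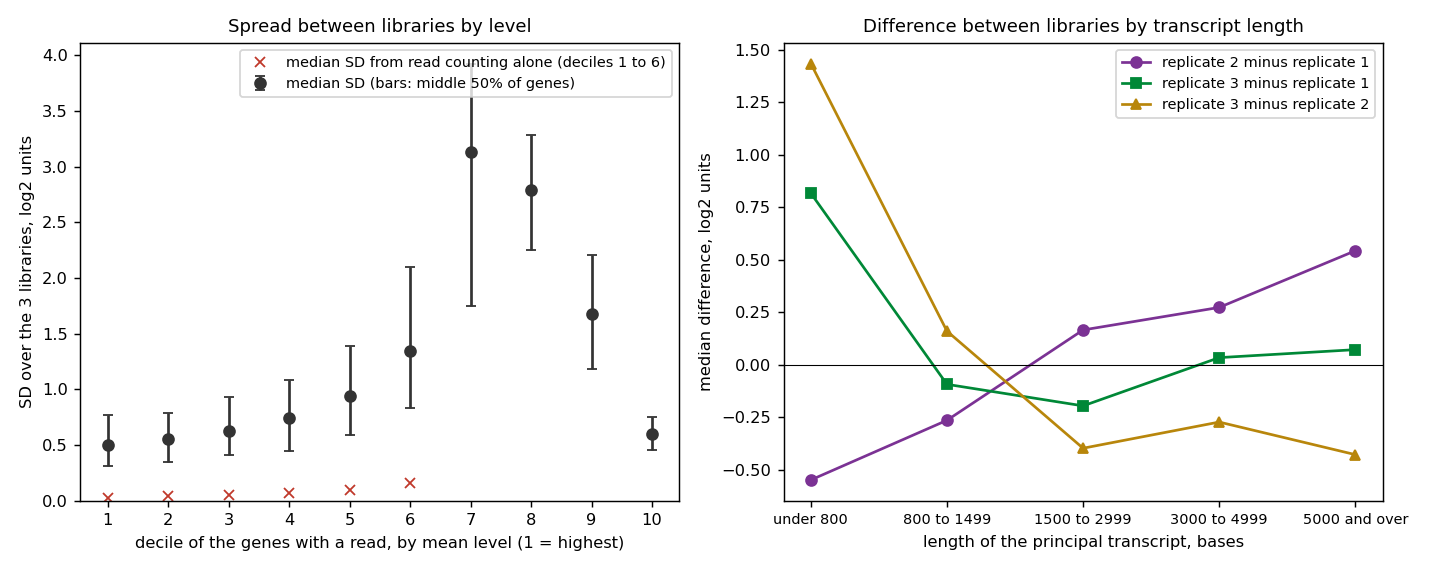
Left, median SD over the 3 control libraries (vertical axis, log2 units) for deciles of the genes with a read, with bars over the middle 50% of genes and crosses for counting error alone. Right, median log2 difference between pairs of libraries by transcript length, which runs from 1.43 under 800 bases to -0.43 at 5000 bases and over for control replicate 3 minus control replicate 2.

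Control replicate 2 also lacked many low genes. Both other libraries gave 10 reads or more to 10318 genes, and 1086 of these (10.5%) were listed at 0 in control replicate 2. The same count was 72 of 8811 (0.817%) for control replicate 1 and 34 of 8713 (0.390%) for control replicate 3. Cd36, Pparg, S100a4, Gzma, Siglece, Ccna2 and Il10 belonged to these genes. S100a4, for example, had log2 levels of 9.56, 0 and 8.93, and the cyclin Ccna2 8.15, 0 and 6.44. No high gene was listed at 0 in any of the 3 libraries. The definition of the class nearly fixes this, since a gene at 0 in 1 library would rarely reach a mean log2 level of 10.80.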

How the data were processed

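RNA of sorted tumour macrophages was copied with SMART-Seq v4, amplified by 16 PCR cycles and made into ThruPLEX libraries that do not mark strand, read by 75 single-end cycles, per the labels' protocols. Reads of antisense or overlapping genes thus fall together. STAR, RSEM and mm10 are credited to the submitters' processing notes; which annotation was used and how values were normalised is not given in the sources used here.

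For each gene and library the authors deposited 1 log2 value, with no header. The unit was read from the values: within a library, 2 to the power of the value, minus 1, falls on whole multiples of 1 step. This gave whole reads, to within 0.01 of a read, for 100% of values. All gene IDs matched GENCODE M21 (GRCm38); 85 genes had no transcript length. TPM used the recovered reads and the principal transcript. Means and SD are over the 3 control libraries, in Python 3.11.15 with numpy 2.4.6 and pandas 2.3.3. Data simulated in the assumed form were used to check the recovery of reads and the SD, the latter as a root mean square. For length, rho was computed without an effect and a line was fitted to an effect that had been added. The medians by length class were not checked in this way.

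The genes named are the top 30 by mean log2 level, up to 5 leading members of each list, members listed at 0, up to 3 members spanning over 4 log2 units per list, the 10 largest and 10 smallest SDs among high genes, and 10 leading genes per length. Further list members were named after their values were seen, and some genes that the rule covers are not reported here. The libraries, the lists and this rule were chosen with earlier results of these data known. List genes whose symbol matched none in the table (C5, Clec7a, Cxcl11, Ifi30, Mb21d1 and Mx2) were not analysed here. Other names of these genes were not searched. Alternatives tried were other detection minimums, thinning, other scalings and pseudocounts, levels per length, other limits of the high class and leaving out each library. The promoter sequences and their motif counts are from RefSeq, GRCm38.p6.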

Additional observations from a re-analysis of the deposited data

How the results depend on the processing

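The share of reads in each library's own top 100 genes, 39.2% on average, came to 50.3% when reads were counted per kilobase. Leaving out each library in turn gave 38.1 to 40.8% for this share, 8713 to 10318 genes with 10 reads in all libraries kept (8618 with all 3), a median SD of high genes of 0.38 to 0.54 (0.50 with all 3), 90 to 93 of the top 100 genes, and 307 to 317 high list genes (322 with all 3). Without control replicate 2, 10318 genes had 10 reads in both libraries. The SD was 0.38 without control replicate 2 and also without control replicate 3, and 0.54 without control replicate 1. Other settings moved no summary by over 1.5 times. Thinning to the smallest total left 8534 genes with 10 reads, a median SD centred by transcript length, chosen after seeing the data, was 0.42, and 72 of the top 100 genes remained when counted per kilobase. The top gene, Cd74, led under each of the 9 rankings run, and 62 genes were in the top 100 under all of them. No paired analysis was possible because 1 group was described and no test was run. The small number of libraries limits every SD, and genes under about 10 reads are poorly measured.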

Other observations

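Outside the gene lists and the ribosomal proteins, the most abundant transcripts per length were Cd52, Itm2b, Sh3bgrl3, Ly6a, Myl6, Bcl2a1b and Ly86. Cd52, which encodes a small glycosylated antigen of leukocytes, had log2 levels of 14.26, 13.68 and 15.08 and 3885 ± 1214 TPM. Ly6a, which encodes the interferon-inducible antigen Sca-1, had 15.40, 14.18 and 14.24, highest in control replicate 1, and its relative Ly6e had 15.77, 14.52 and 14.93. Ly86, the partner of the Toll-like receptor relative Cd180, had 14.95, 13.90 and 14.78. The metal-binding Mt1 was uneven, at 12.89, 12.15 and 14.67, and highest in control replicate 3. Subunits of the respiratory chain with short transcripts, Cox4i1, Cox5a and Cox8a, had 13.74, 12.95 and 14.82 for Cox4i1, 13.24, 12.95 and 14.20 for Cox5a and 12.97, 12.15 and 14.19 for Cox8a, each lowest in control replicate 2 and highest in control replicate 3.

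Some genes had at least 100 reads in 1 control library and none in the others: 20 in control replicate 1, 18 in control replicate 2 and 25 in control replicate 3. Ugt1a6b led in control replicate 1 with 584 reads, Hgs, which sorts receptors into the lysosomal pathway, had 710 reads in control replicate 2, and the transcription factor Sox4 had 580 in control replicate 3.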
